A study of Mus musculus with 4 samples.

Results

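DNA methylation over the Gimap genes was described in thymic natural killer T (NKT) cells, gene by gene along the cluster of 8 genes on chromosome 6 (mm10, 48647186 to 48770851, 123.7 kb). A deposited window of 100 bp counted as a member if it overlapped the annotated span of Gimap8, Gimap9, Gimap4, Gimap6, Gimap7, Gimap1, Gimap5 or Gimap3 with 1000 bp added on each side. This gave 50 windows of 1048575 in the table, and all 8 genes held at least 2 of them. The cells were sorted as CD1 tetramer binders from the thymus of PLZFon and WT mice, both of the C57BL/6 strain. PLZF is a zinc finger protein on which the innate-like program of NKT cells depends. What the PLZFon allele is, and the age of the mice, are not given in the labels. Sonicated DNA enriched with an anti-5-methylcytosine antibody (MeDIP) and unenriched DNA (input) were sequenced, with 1 library for each of the 4 groups: PLZFon MeDIP, WT MeDIP, PLZFon input and WT input. The antibody label conflicts with the titles: it reads none for both PLZFon libraries and names the antibody for both WT libraries. The titles were followed, and which of the labels is right was not tested.

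GIMAP proteins are GTPases of the AIG1 type that sit on membranes inside lymphocytes, and their genes lie in a row in the mammalian genome. They are known above all for the survival of T cells: mice without Gimap5 lose peripheral T cells and have disturbed NK and NKT cell development, and a mutation of this gene makes the BB rat lymphopenic. In MeDIP the number of reads in a window rises with the number of methylated CpG sites in it, so a window can hold few reads because its CpGs are unmethylated or because it has few CpGs.

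The libraries held 10635946 (PLZFon MeDIP), 15143451 (WT MeDIP), 50365402 (PLZFon input) and 60689327 reads (WT input), as worked out from the counts and RPKM values together. No window of the table had fewer than 10 MeDIP reads summed over PLZFon and WT, or fewer than 1 CpG, and a window that is not listed did not necessarily lack reads. The CpG factor deposited for each window was the number of CpGs in it: in 998 of 998 listed windows inside annotated promoters of protein-coding genes it equalled the number of CG pairs counted in the sequence. Adjacent windows share reads, since a read fell in about 4 of them, and the reads of a locus are therefore its summed window counts divided by 4. All 95% intervals are exact (Clopper-Pearson), cover counting error only, and compare libraries, not genotypes, because no group was replicated.

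The promoters of the Gimap genes were poor in CpG, and none of them held a listed window. RefSeq (GRCm38.p6, the primary assembly of mm10) gives 9 promoters for the 8 genes, from 250 bases before to 50 after the start, and all 8 genes matched by symbol. They held 2 to 8 CpGs in 300 bases with a median of 4, against a median of 13 over 9786 promoters of protein-coding genes in the range of the table. The promoters of Gimap9, the richest in CpG, of Gimap5, whose locus held the most MeDIP reads over both libraries, and of Gimap3, among the poorest, are shown to make this visible. Capitals mark each CG, which reads the same on both strands and occurs in 95.1% of the 9786 promoters.
Gimap9 promoter (chr6:48675885-48676184, plus strand): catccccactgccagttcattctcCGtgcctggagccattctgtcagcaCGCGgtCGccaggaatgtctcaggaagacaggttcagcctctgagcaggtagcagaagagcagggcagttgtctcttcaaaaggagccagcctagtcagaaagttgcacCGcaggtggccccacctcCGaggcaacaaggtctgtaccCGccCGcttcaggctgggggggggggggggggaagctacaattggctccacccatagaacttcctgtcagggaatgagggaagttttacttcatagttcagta
Gimap5 promoter (chr6:48745947-48746246, plus strand): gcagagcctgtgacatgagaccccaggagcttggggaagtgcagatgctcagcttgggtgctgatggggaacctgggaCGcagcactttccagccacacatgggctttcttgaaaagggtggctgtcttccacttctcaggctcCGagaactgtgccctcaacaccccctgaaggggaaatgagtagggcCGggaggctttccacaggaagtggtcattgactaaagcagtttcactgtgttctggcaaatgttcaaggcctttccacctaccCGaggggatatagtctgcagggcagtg
Gimap3 promoter (chr6:48770802-48771101, minus strand): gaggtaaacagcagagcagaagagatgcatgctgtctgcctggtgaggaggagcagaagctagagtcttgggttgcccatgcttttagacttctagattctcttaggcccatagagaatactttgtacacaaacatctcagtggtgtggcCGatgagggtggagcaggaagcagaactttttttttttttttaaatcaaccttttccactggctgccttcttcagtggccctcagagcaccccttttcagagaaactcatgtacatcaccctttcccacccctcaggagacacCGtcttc
The Gimap9 promoter has 8 CpGs, the Gimap5 promoter 4 and the Gimap3 promoter 2, and the Gimap5 and Gimap3 genes run towards each other on opposite strands.

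None of the 9 Gimap promoters overlapped a listed window, where 10.1% of the 9786 promoters did and 23.8% of the 2961 promoters with 2 to 8 CpGs. Of the windows that lie wholly inside a Gimap promoter, 15 had 1 to 4 CpGs and 0 were listed. Over all promoter windows with 1 to 4 CpGs, 12.2% of 7307 were listed. With so few windows a count of 0 is near that background.

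Most listed windows lay towards the far end of the genes. In Gimap4, Gimap6, Gimap7, Gimap1, Gimap5 and Gimap3 the midpoint of the listed window nearest to the annotated start lay 4603 to 5929 bp downstream of it. Gimap8, the longest gene of the cluster, had a single window at 3016 bp and the others from 8616 to 9416 bp. Gimap9 went the other way: its 3 windows lay upstream of the gene, at -885, -785 and -685 bp from the start, and its body held none. Of 39 windows inside the genes, 28 (71.8%) lay in the last 3rd of the gene and 1 in the first. Gimap5 had 6 windows in the middle 3rd and 5 in the last, and Gimap8 had 4 in the middle and 3 in the last. Over 2219 protein-coding genes of the same length range (2996 to 13690 bp) the last 3rd held 39.4% of 27796 windows and the first 24.8%.

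Counted by gene, 6 of 8 Gimap genes had no listed window before the start or in the first 3rd, against 26.1% of 1995 genes of that length range with a listed window. Within 1000 bp of the start, 1 of 8 had a listed window (Gimap9), against 41.6% of the 2219 genes. These shares are descriptions with no test, and windows of one stretch share reads. The genes of that length range were not matched for the number of listed windows. The Gimap loci are sparse in them, and a gene with few listed windows is less likely to hold one near its start. The gene table gives spans only, so exons and introns were not assigned, and the non-coding gene Gm46958, which overlaps the Gimap9 span, held 0 of the member windows. In the headers the alignments are named as sorted and unique, and whether reads from stretches alike between Gimap paralogs were dropped was not tested.

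**Figure D1:**
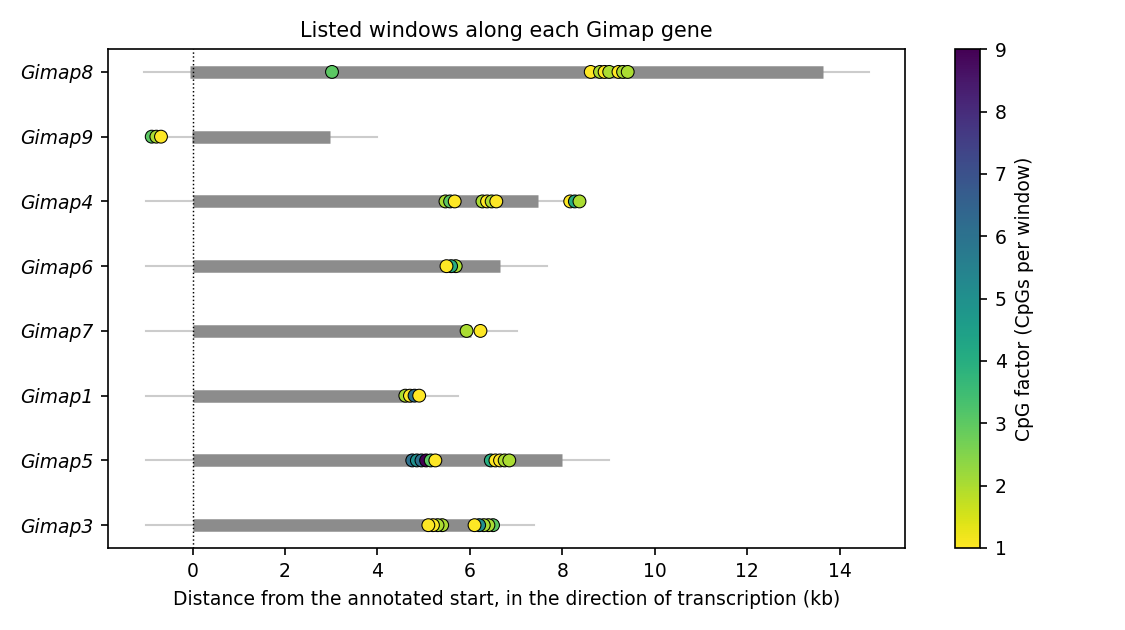
Each row is a Gimap gene in genome order, drawn as a grey bar from its annotated start (0 kb, dotted line) to its end with thin lines for the 1000 bp flanks, and each point is a listed window coloured by its number of CpGs. In 6 of the 8 genes the points begin 4.6 kb or more from the start, and the darkest point, with 9 CpGs, lies in Gimap5.

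The loci were also sparse in listed windows. Gimap5 had 1.1 windows per kb of locus, Gimap3 1.07 and Gimap4 1.05, Gimap9 0.601, Gimap1 0.593 and Gimap8 0.51, Gimap6 0.346 and Gimap7 0.25. All 8 stood below the median of 9572 protein-coding loci (1.23), and the share of those loci that was sparser still ran from 15.6% (Gimap7) to 45.4% (Gimap5). The mean number of CpGs per window was 2.36, against 2.34 over all listed windows, and it was 2 without Gimap5. Windows with 5 or more CpGs made up 6 of 50 (12%), against 7.8% of all listed windows, and 4 of these 6 were in Gimap5. Without Gimap5 the share was 5.13%. Input reads per window over both libraries had a median of 17, against 20 over the table, and 0 member windows reached 60.

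**Figure D2:**
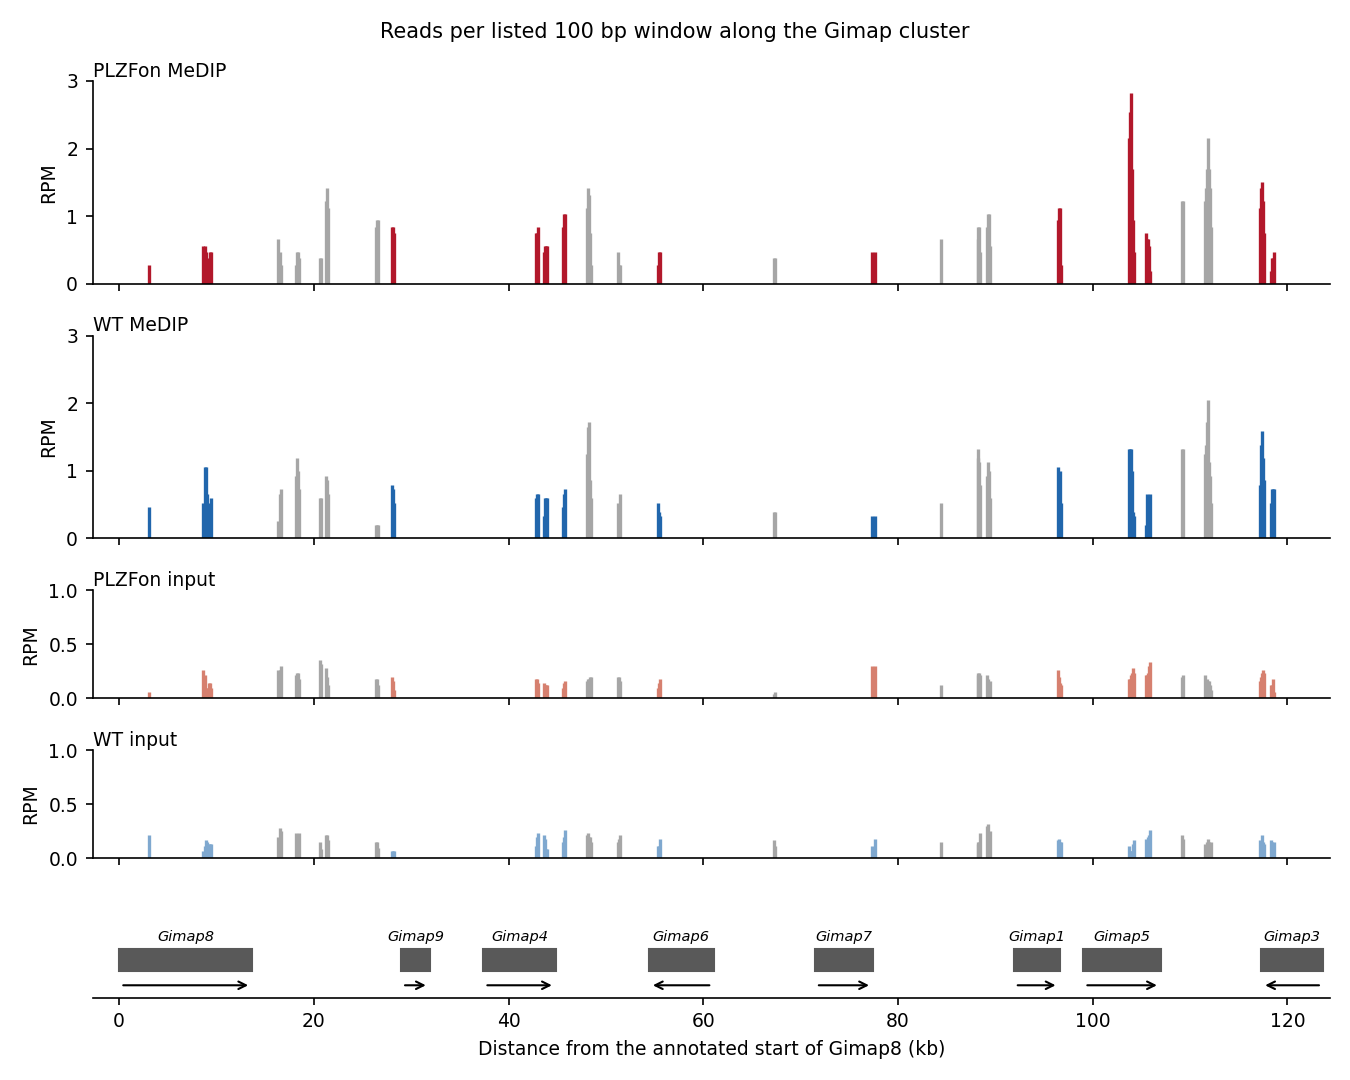
Depth-scaled reads (RPM) in every listed 100 bp window along the cluster, in kb from the start of Gimap8, for the PLZFon MeDIP, WT MeDIP, PLZFon input and WT input libraries from top to bottom. Coloured lines are windows of the 8 loci, grey lines are windows between them, and arrows below give the direction of transcription. The tallest line in the cluster is the Gimap5 stretch in PLZFon MeDIP (2.82 RPM).

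The next comparison asked whether MeDIP reads differed between PLZFon and WT over each gene. None of the 8 loci passed the rule, which asked for 20 or more MeDIP reads in PLZFon and WT together, a 2-fold difference in either direction and an interval without equality. Gimap5 had the highest ratio of the 5 loci with enough reads (Gimap8, Gimap4, Gimap1, Gimap5 and Gimap3), 1.6, and Gimap8 the lowest, 0.641. Both intervals include equality. Of 7668 protein-coding loci 0.443% passed (0.0913% higher and 0.352% lower in PLZFon), so a count of 0 of 5 is near the background. By the interval alone 1.24% were higher and 5.01% lower, and again 0 of the 5.

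Gimap5, the survival GTPase (48746197 to 48754200, plus strand), had 35.8 PLZFon and 31.8 WT MeDIP reads over its 11 windows, the most of any member over both libraries together. Scaled to depth this was 1.22 RPM (reads scaled to library size) per window in PLZFon and 0.762 in WT, a ratio of 1.6 (0.966 to 2.67). Its input differed by as much, with 33.2 PLZFon and 24.8 WT reads and a ratio of 1.62 (0.933 to 2.84). The MeDIP ratio of Gimap5 was above that of 99% of the 7668 loci, many of them with far more reads than the 67.5 of Gimap5. The Gimap5 interval moved just above equality in 5 of 12 alternatives. Lower bounds were 1.002 with TMM factors (ratio 1.66), 1.002 with scaling by the listed windows (1.66) and 1.018 with median of ratios factors (1.69). They were 1.024 with scaling within CpG classes (1.7) and 1.04 with sums divided by 3 (1.6). In the other alternatives the interval included equality, but not all of them could move it. The read minimums and the fold cannot change a ratio or its interval, so they repeated the main value. Using no flank and leaving out windows with many input reads repeated it too, since neither removed a Gimap5 window. The alternatives that changed the windows and still included equality were 1 window in every 4 (1.48, 0.813 to 2.71) and a flank of 5000 bp (1.25, 0.9 to 1.73).

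**Figure D3:**
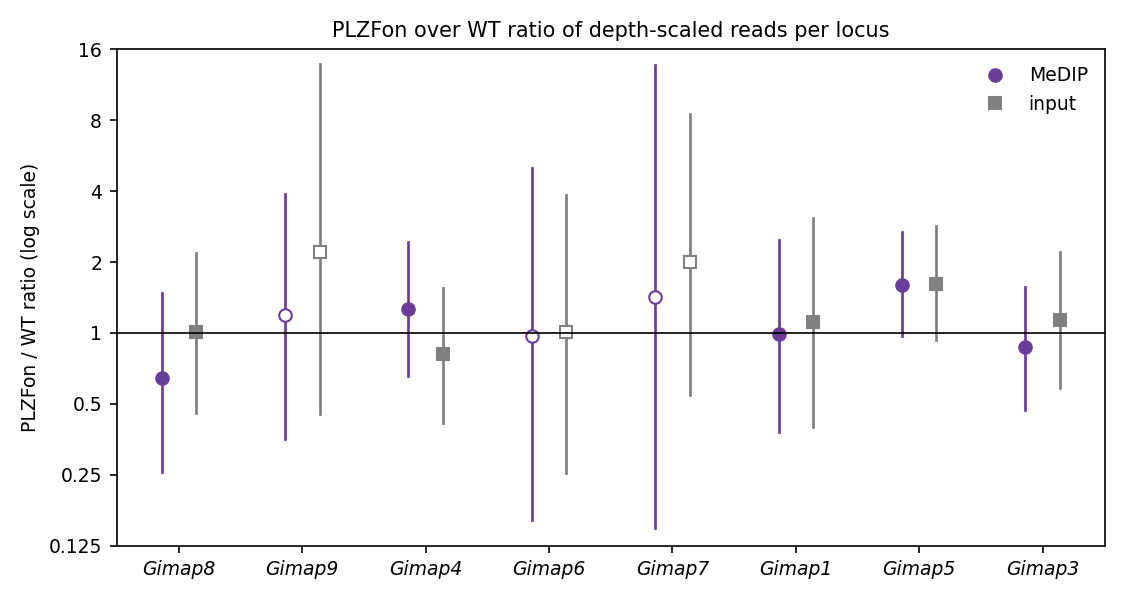
PLZFon over WT ratio of depth-scaled reads (log axis) per locus for MeDIP (circles) and input (squares), with exact 95% intervals of counting error as lines and open symbols where a locus had under 20 MeDIP reads. All 16 intervals cross 1, and at Gimap5 the MeDIP and input ratios stand at 1.6 and 1.62.

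The reads of Gimap5 came mainly from a stretch of 6 adjacent windows (chromosome 6, 48750901 to 48751500, 4753 to 5253 bp from the start to the window midpoints), which held 30 CpGs. Its first 4 windows had 23, 27, 30 and 18 PLZFon reads against 20, 20, 20 and 15 WT reads, so the deeper WT library held fewer reads in each. The window with the most MeDIP reads of all 50 and the highest ratio of the 18 with at least 20 reads lay here (48751101 to 48751200, 6 CpGs), with 30 reads in PLZFon and 20 in WT, or 2.14 after scaling (1.17 to 3.97). Its neighbour (48751001 to 48751100, 5 CpGs) followed at 1.92 (1.04 to 3.62). The window with the most CpGs in the cluster's genes, 9 (48751201 to 48751300), stood at 1.71 (0.813 to 3.64). These windows are 1 observation, since they share reads.

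In the inputs of the same windows there were 11, 9 and 12 PLZFon reads against 4, 4 and 4 WT reads, giving input ratios of 3.31 (0.982 to 14.3), 2.71 (0.757 to 12.1) and 3.62 (1.1 to 15.4). Over the whole stretch the summed counts divided by 4 were 28.2 PLZFon and 21.5 WT MeDIP reads, at 1.87 (1.03 to 3.44). For input they were 16.8 PLZFon and 9.25 WT reads, at 2.18 (0.923 to 5.51). MeDIP stood at 7.99 times the input in PLZFon and 9.32 times in WT there. The part of the input difference in the MeDIP difference was not tested. The second stretch of Gimap5 (48752601 to 48753100) had a ratio of 1.04 (0.349 to 2.96) on 7.5 PLZFon and 10.2 WT reads.

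**Figure D4:**
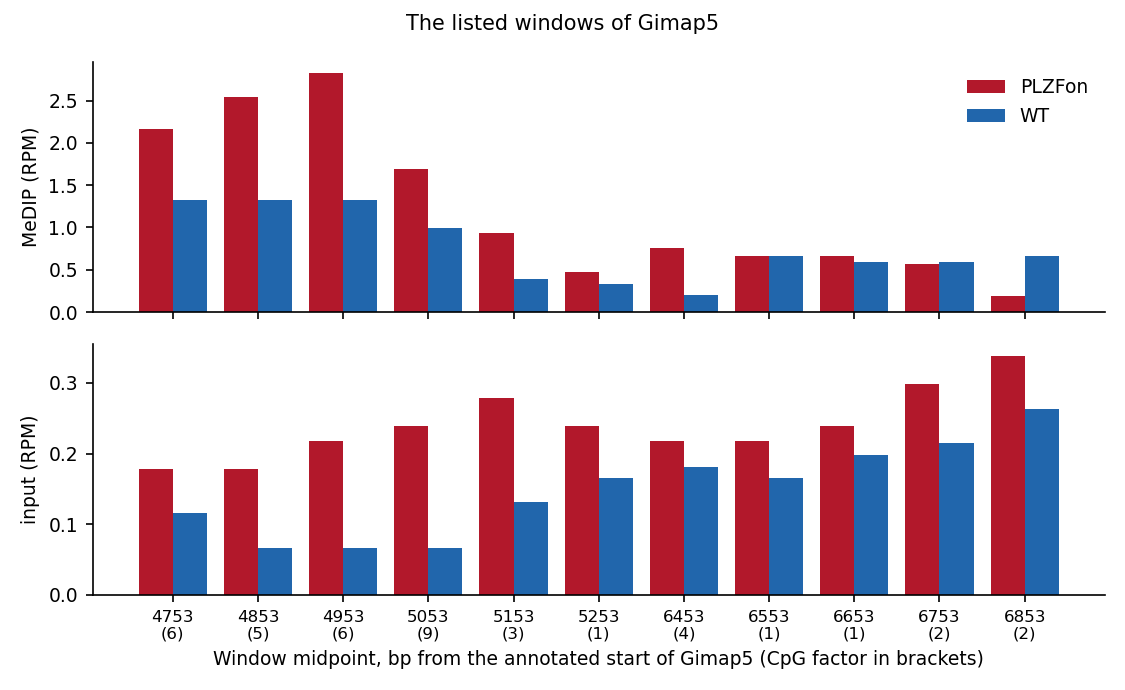
Depth-scaled reads (RPM) in the 11 listed windows of Gimap5 for MeDIP (top) and input (bottom), PLZFon bars left of WT bars, ordered from the start and with the number of CpGs in brackets. In the input panel PLZFon stands higher in all 11 windows. In the MeDIP panel PLZFon stands higher in the first 6 and at 6453 and 6653 bp, and its peak of 2.82 RPM is at 4953 bp, where WT has 1.32.

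Gimap3, a close relative of Gimap5, which in the mouse affects the segregation of mitochondrial DNA (48764464 to 48770851, minus strand), stood slightly below equality without a call. It had 19.8 PLZFon and 32.2 WT reads over 9 windows, a ratio of 0.872 (0.472 to 1.57). Its inputs, 19.8 PLZFon and 21 WT reads, stood at 1.13 (0.581 to 2.2). A stretch across its 3' end (48764301 to 48764800) had up to 16 PLZFon and 24 WT reads per window and a ratio of 1.04 (0.508 to 2.06). The next one, inside the gene (48765401 to 48765800), had up to 5 PLZFon and 11 WT reads and a ratio of 0.521 (0.114 to 1.84). In this inner stretch each of the 4 windows held fewer PLZFon than WT reads (2, 4, 4 and 5 in PLZFon against 8, 11, 11 and 11 in WT).

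Gimap1, without which mice lose mature B and T cells (48739047 to 48743795, plus strand), lay at equality. Its 4 windows form a single stretch across the 3' end (48743601 to 48744000) with 10 CpGs. They had 10, 12, 12 and 3 PLZFon reads against 16, 14, 15 and 8 WT reads, 9.25 PLZFon and 13.2 WT reads in all, a ratio of 0.994 (0.38 to 2.49). Input there stood at 1.11 (0.398 to 3.07). One of its windows (48743801 to 48743900) had 6 CpGs and was 1 of 4 in the Gimap loci with 6 or more.

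Gimap4, which modulates the death of T cells (48684578 to 48692062, plus strand), had 19.8 PLZFon and 22.2 WT reads over 10 windows. Depth-scaled, PLZFon stood at 1.26 times WT (0.654 to 2.43). In the inputs it stood at 0.811 (0.416 to 1.55), with 17.5 PLZFon and 26 WT reads. Its 3 stretches all lay above 1, at 1.23 (48690001 to 48690300), 1.02 (48690801 to 48691200) and 1.58 beyond the end of the gene (48692701 to 48693000, 0.493 to 5.14). Window counts were even between the libraries, 5 to 11 in PLZFon and 5 to 11 in WT, although the WT library was 1.42 times as deep.

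Gimap8, the largest member, whose protein carries several GTPase domains (48647186 to 48660875, plus strand), had the fewest PLZFon reads relative to WT. There were 9 PLZFon and 20 WT reads over 8 windows, a ratio of 0.641 (0.257 to 1.47), while the inputs were even at 1.01 (0.459 to 2.18). Among the 7668 loci, many of them with far more reads than the 29 of Gimap8, 2.52% had a lower ratio. The difference lay mostly in the stretch 48656001 to 48656300, with 6, 5 and 2 PLZFon reads against 16, 16 and 10 WT reads, a ratio of 0.441 (0.0849 to 1.63). Both Gimap8 windows with at least 20 reads were the lowest of the 18, at 0.445 (0.128 to 1.27) for 48656101 to 48656200 and 0.534 (0.171 to 1.44) for 48656001 to 48656100, followed by a Gimap3 window at 0.876 (0.315 to 2.28; 48764701 to 48764800).

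The other members had too few reads for the rule. Gimap9 (48676121 to 48679116, plus strand) had 6.5 PLZFon and 7.75 WT reads in the windows upstream of its start (48675201 to 48675500), a ratio of 1.19 (0.353 to 3.89), on inputs of 5.5 reads in PLZFon and 3 in WT. These are scaled values: the window 48675201 to 48675300 alone had 9 PLZFon and 12 WT reads. The next window had 9 PLZFon and 11 WT reads. Gimap6, linked to autophagy (48701583 to 48708244, minus strand), had 3 windows in 1 stretch (48702501 to 48702800), with 3, 5 and 5 PLZFon reads and 8, 6 and 5 WT reads. Its ratio was 0.974 (0.161 to 5.01). Gimap7, whose human counterpart dimerises on GTP (48718621 to 48724636, plus strand), had 2 single windows, inside its 3' end and just beyond it (48724501 to 48724600 and 48724801 to 48724900), each with 5 reads in PLZFon and 5 in WT. Together they stood at 1.42 (0.148 to 13.7). At this depth no difference short of several-fold was detectable in these genes.

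Of the 18 member windows with at least 20 reads, 1 passed the rule as higher in PLZFon, the Gimap5 window at 2.14, and 0 as lower. Of 409114 such windows in all, 1.13% were higher and 2.17% lower (3.3% in all), and the 1 of 18 is a single window. By the interval alone 2 of the 18 were higher and 0 lower, both in the Gimap5 stretch, against 1.32% and 2.57% of the 409114. Of the 18, 13 had a ratio above 1 and 5 below, and of all 50 member windows 28 were above and 22 below. Windows of one stretch share reads, and the split over the 409114 was not worked out. The authors' deposited table gives 2 of the 50 windows an unadjusted p under 0.05, both in the Gimap5 stretch, 0.0111 with a log2 fold change of 1.14 (48751101 to 48751200) and 0.0295 with 0.99 (48751001 to 48751100). All 50 have an adjusted p of 1 in the authors' deposited table.

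The relative methylation score, the authors' own value that sets the MeDIP signal against CpG density, was read from the authors' deposited table. In the Gimap5 window of 48751101 to 48751200 it was 0.59 in PLZFon and 0.54 in WT, and in the Gimap8 window of 48656101 to 48656200 it was 0.63 in PLZFon and 0.79 in WT. Over the windows of a locus the score reached its highest value at Gimap1 in PLZFon (0.74) and at Gimap8 in WT (0.79). Within Gimap5 the lowest and highest were 0.41 and 0.68 in PLZFon, against 0.34 and 0.73 in WT. The score followed raw counts: a Gimap3 window (48764301 to 48764400) with 12 reads in each library scored 0.56 in both. The WT library was 1.42 times as deep. A Gimap5 window (48752701 to 48752800) with a depth-scaled ratio of 0.997 scored 0.68 in PLZFon and 0.73 in WT. A lower score in PLZFon than in WT is therefore not by itself lower methylation.

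A further comparison set MeDIP against input in each genotype. Windows were listed only with 10 or more MeDIP reads over PLZFon and WT together, with no such minimum for input, so a value above 1 follows largely from that selection and is given as a description. The values ran from 1.58 (Gimap7, 0.218 to 7.28) to 5.6 (Gimap9, 1.52 to 21.5) in PLZFon and from 2.23 (Gimap7, 0.277 to 13.1) to 10.4 (Gimap9, 2.46 to 60.9) in WT. The WT value of Gimap9 rests on few input reads (12 summed over its windows, or 3 after division by 4). It was 4.45 with a flank of 5000 bp, where PLZFon had 5.66. The PLZFon value of Gimap7 was 2.44 with that flank. At Gimap5 the values were 5.09 (3.09 to 8.42) in PLZFon and 5.14 (2.94 to 9.07) in WT. At Gimap8 they were 3.04 (1.16 to 7.55) in PLZFon and 4.79 (2.38 to 9.76) in WT. Gimap3 stood at 4.74 (2.41 to 9.32) in PLZFon and 6.16 (3.45 to 11.2) in WT, and Gimap1 at 4.87 (1.73 to 13.8) in PLZFon and 5.45 (2.21 to 14) in WT. Gimap6 had 2.93 (0.497 to 14.2) in PLZFon and 3.05 (0.719 to 11.9) in WT. Gimap4 had 5.34 (2.67 to 10.8) in PLZFon and 3.43 (1.86 to 6.28) in WT. The intervals of both genotypes overlap at every gene.

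**Figure D5:**
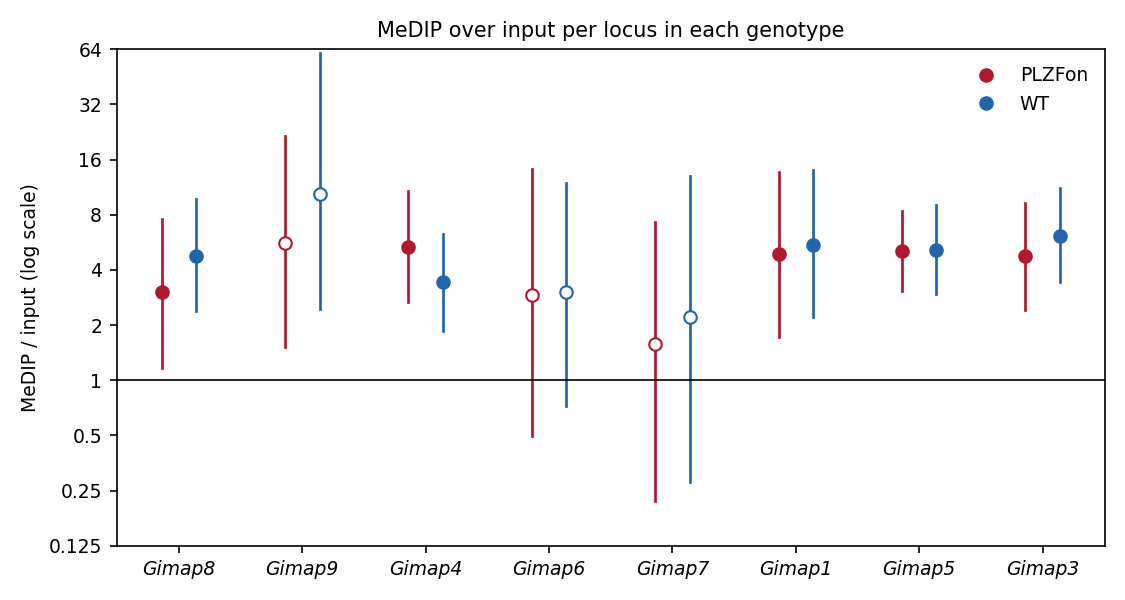
Depth-scaled MeDIP reads over input reads (log axis) per locus, PLZFon left of WT, with exact 95% intervals of counting error and open symbols for loci with under 20 MeDIP reads. Points above 1 follow largely from the minimum of 10 MeDIP reads per listed window, and the PLZFon and WT intervals overlap at each locus, as at Gimap5 (5.09 in PLZFon and 5.14 in WT).

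The 8 loci together held 105.8 PLZFon and 134.5 WT MeDIP reads, a ratio of 1.12 (0.859 to 1.46). Their inputs stood at 1.2 (0.917 to 1.58). Over all listed windows the MeDIP ratio was 0.964. Without Gimap5 the 7 other loci gave 0.97 (0.705 to 1.33). The mean level was 0.795 RPM per window in PLZFon and 0.711 in WT, against 0.828 in PLZFon and 0.859 in WT over all listed windows. MeDIP over input, 4.48 (3.4 to 5.9) in PLZFon and 4.81 (3.72 to 6.24) in WT, stood beside 4.22 in PLZFon and 4.44 in WT over all listed windows, which passed the same minimum of MeDIP reads. In bins of 5 kb along the cluster, 7 of 26 held no listed window, and of the other 19 the ratio was above 1 in 7 and below 1 in 12. All 19 intervals include equality, some bins held few reads, and the ratio over all listed windows was itself below 1.

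The neighbours, 16 protein-coding genes within 250 kb, were denser in listed windows, with a median of 1.58 per kb against 0.597 for the Gimap loci. Their ratios over the 14 with at least 20 reads had a median of 0.995 and ran from 0.67 (Krba1) to 1.34 (Rarres2), and the 5 Gimap loci had a median of 0.994, where all 7668 loci had 0.959. The guanylate binding protein genes, another family of GTPases in clusters, were as sparse as the Gimap genes (median 0.517 windows per kb over 9 loci). Over the 7 of them with at least 20 reads the ratios ran from 0.45 (Gbp9, 0.243 to 0.792, past the rule) to 1.39 (Gbp7). The Bcl2 family, regulators of lymphocyte death, ran from 0.844 (Bcl2l11) to 1.71 (Bax) over 5 loci, and the SLAM receptors, needed for NKT cell development, from 0.841 (Slamf1) to 1.05 (Slamf7) over 6, with 0 loci past the rule in either list.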

How the data were processed

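MeDIP and input libraries of PLZFon and WT NKT cells were grouped by their titles. Sequencing reads were aligned with BWA to mm10 and compared with edgeR, per the submitters' processing notes, versions not given. The authors deposited raw counts of reads per 100 bp window, RPKM values, a relative methylation score and a CpG factor score. The deposited table also holds the authors' log2 fold changes and p-values from edgeR. It has 1048576 lines with its header and ends within chromosome 7.

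Library totals came from counts over RPKM. In the inputs, outside windows with 60 or more input reads, the scaled squared difference between windows levelled off from a distance of 4 windows (PLZFon 1.14, WT 1.15) to 8 windows (PLZFon 1.2, WT 1.23), so a read was taken to fall in 4 windows. In the MeDIP libraries it went on rising from 4 windows (PLZFon 4.91, WT 7.16) to 8 windows (PLZFon 6.92, WT 10.4). The divisor rests on the inputs, was applied to MeDIP as well, and none above 4 was tried. A ratio is the depth-scaled share of one library over that of another, with an exact 95% binomial interval, which covers neither PCR duplicates nor differences between animals. The 3 comparator lists and 16 neighbours were described by counts and medians. Of the lists, 6 of 9 Bcl2 family, 9 of 10 guanylate binding protein and 6 of 7 SLAM genes lay in the range of the table. Gene spans, strands and starts came from RefSeq (GRCm38.p6). Columns spelled PLZon in the file headers were taken as PLZFon. With 1 library per group no test of genotype was made. Named were all members, the 3 highest and 3 lowest windows by ratio, the 3 with most reads, the 3 with most CpGs, and the highest and lowest locus of each list. The members and lists were chosen with earlier results of these data known. Alternatives were other scalings, flanks, read minimums, folds, window sets and divisors. Python 3.11.15, SciPy 1.17.1, R 4.3.3 and edgeR 4.0.16 (for TMM factors) were used.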

Additional observations from a re-analysis of the deposited data

How the results depend on the processing

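No paired analysis was possible because each group had 1 library. The ratio of the 8 loci together was 1.12 and ran from 0.945 (flank of 5000 bp) to 1.18 (median of ratios factors) over the settings tried, and it was 0.97 without Gimap5 and 1.2 without Gimap8, both chosen after seeing the data, as was the interval alone. The number of loci past the rule was 0 in all 13 alternatives. The number of windows past it, 1 as reported, was 2 with median of ratios factors and 2 with scaling within CpG factor classes. It was 2 with a fold of 1.5 and 2 with the interval alone, all higher in PLZFon. With that fold or the interval alone the added window was the called window's neighbour (48751001 to 48751100, 1.92, 1.04 to 3.62). These windows share reads. Both scalings raised the Gimap5 ratio, from 1.6 to 1.69 and 1.7, and the part of this in the count was not tested. The number of windows past the rule was 0 of 12 with 1 window in every 4. Single-locus ratios stayed on their side of 1 in every alternative that gave a value, except Gimap6 (other side in 4 of 11) and Gimap1 (5 of 12). Several alternatives could not move a ratio and do not bear on this. The read minimums, the fold and the divisor cannot change it, and leaving out windows with many input reads removed no member window. Gimap9 moved most, from 1.07 to 1.96 (flank of 5000 bp), while Gimap5 ran from 1.25 to 1.7 and Gimap8 from 0.641 to 0.678. Gimap9 had no value with no flank and Gimap6 none with 1 window in every 4. Leaving out replicates was not possible. Counting each stretch once, also chosen after seeing the data, put 8 of 12 (66.7%) in the last 3rd of the gene. Depth limits every locus: as summed counts divided by 4, no member had over 67.5 reads in both MeDIP libraries together.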

Other observations

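Between the Gimap loci the table listed 43 windows, at 0.957 (0.733 to 1.25) for PLZFon over WT in MeDIP and 1.04 (0.789 to 1.36) in the inputs. Among them the stretch between Gimap5 and Gimap3 (chromosome 6, 48758701 to 48759400) held 27.8 PLZFon and 34 WT MeDIP reads over 7 windows, more over both libraries than any stretch inside the genes, at a ratio of 1.16 (0.678 to 1.98). It stood at 9.73 (4.91 to 20.2) times its input in PLZFon and 8.94 (4.75 to 17.6) times in WT, with 16 CpGs, on windows listed by their MeDIP reads.

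In the pseudogene Gm44262, between Gimap8 and Gimap9 (48665301 to 48665700), there were 3 to 5 PLZFon and 11 to 18 WT reads per window, a ratio of 0.417 (0.105 to 1.29), while the inputs were even at 1.02 (0.414 to 2.47). A stretch upstream of Gimap9 (48673501 to 48673800) had the reverse, 9 to 10 PLZFon reads and 3 WT reads per window, a ratio of 4.59 (0.937 to 38.1). Its inputs were even, with 6 to 9 reads per window in PLZFon and 6 to 9 in WT. Both were singled out after their values were seen, both rest on fewer than 20 reads, and both intervals include equality.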
